A study of Mus musculus with 11 samples.

Results

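Aquaporins are membrane channels that let water, and for some members glycerol or hydrogen peroxide, cross cell membranes down a gradient. The colon takes up most of the water that reaches it, and its epithelium carries aquaporins on the membrane that faces the lumen and on the membrane that faces the blood. The family divides into water-selective channels (such as Aqp1, Aqp2, Aqp4, Aqp5), aquaglyceroporins that also pass glycerol (Aqp3, Aqp7, Aqp9), Aqp8, which passes water, ammonia and hydrogen peroxide, and the distant members Aqp11 and Aqp12, which lie largely on membranes inside the cell.

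The genes described here are all those of the deposited table whose symbol is Aqp followed by a number. There were 11 such genes, on 14 transcript rows, of 22243 genes on 28808 rows. Polyadenylated RNA of the whole wall of the distal colon was sequenced from 6 wild-type (WT) and 5 Nrg4-/- (KO) animals; the gene's product, neuregulin-4, binds the receptor ErbB4. They were 11 to 12 weeks old, the labels name no treatment, and both genotypes shared cages from 9 weeks of age. The sources used here do not give the strain or the design of the allele. In cages A and B lived 2 animals of each genotype, in cage C 2 WT and 1 KO. Mice are named by genotype and number as in the labels, for example WT-2.

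The values are TPM (transcript abundance relative to all transcripts of a library), which are scaled for transcript length, so that different genes of a mouse can be set side by side. The labels state that both sexes were used but give no sex per mouse. The Y-linked gene Eif2s3y had 21.5 to 31.8 TPM in cage A animals and no more than 0.0523 TPM in any animal of cages B and C, so a difference of cage A and a difference of sex cannot be told apart. Nrg4 was listed at 0 in all 11 mice, WT included, so it gives no check of the labels. Mitochondrially encoded genes took 19.0% to 31.4% of the summed TPM in 10 mice and 42.9% in KO-3, the library that stood apart, and 10221 to 10822 genes per mouse reached 1 TPM. The tissue carried the markers its label implies. The 12 surface absorptive colonocyte genes summed to between 16507 and 24718 TPM, of which Lypd8 alone held between 10788 and 15210 TPM. Dhrs9 of the same list reached at most 0.573 TPM. The 9 smooth muscle genes summed to between 2645 and 5264 TPM, while 8 genes of squamous epithelium summed to between 0.523 and 2.67 TPM.

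The first question was which aquaporins the distal colon expresses. Of the 11 genes, 4 reached 1 TPM in every mouse, Aqp8, Aqp1, Aqp4 and Aqp11, and the other 7 stayed under 1 TPM in every mouse. Aqp8, a channel of the surface colonocyte, had the highest mean with 78.6 ± 28.1 TPM (SD, n = 11), above 92.2% of the 10756 genes that passed the filter (1 TPM or more in 5 or more mice). Aqp1, the water channel of red cells and of capillary endothelium, had 30.4 ± 4.4 TPM and lay above 81.5% of those genes. Aqp4, a water channel of basolateral epithelial membranes and of astrocytes, had 26.6 ± 9.86 TPM and lay above 79.3%. Aqp11 had 3.13 ± 0.722 TPM and lay above 25.5%.

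**Figure D1:**
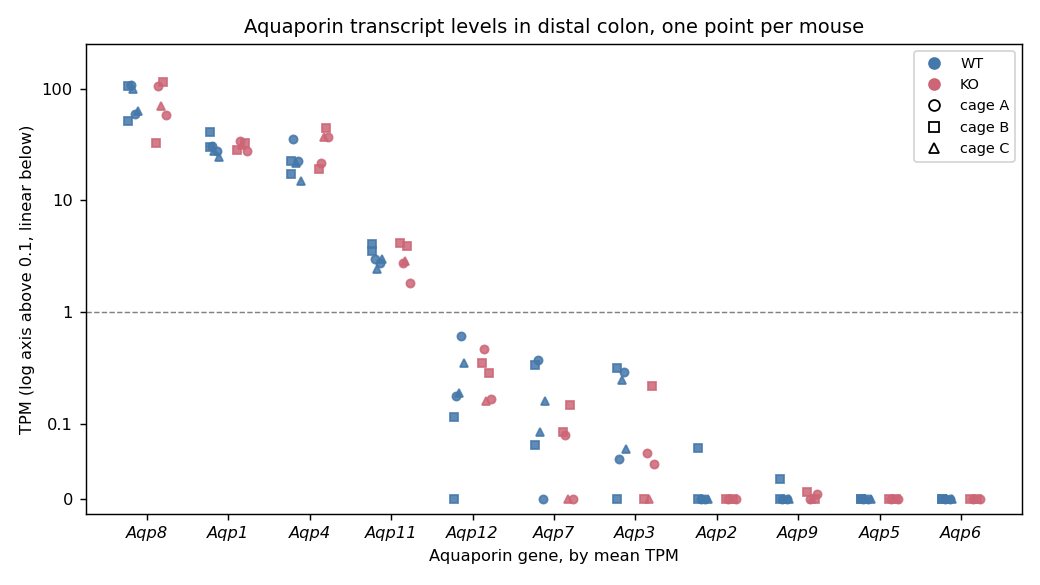
TPM of each of the 11 aquaporin genes (vertical axis, logarithmic above 0.1 TPM and linear below) in each of 11 mice, with colour for genotype and symbol for cage; the dashed line is 1 TPM. Aqp8, Aqp1, Aqp4 and Aqp11 lie above the line in every mouse and the other 7 genes below it in every mouse.

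The order of these 4 genes was tested within mice, by an exact two-sided sign-flip permutation test of the log2(TPM + 0.5) difference of each neighbouring pair, adjusted over 3 pairs. Neighbours were set by mean TPM over these same mice, so the p-values describe an order taken from the values tested. Aqp8 stood above Aqp1 in 11 of 11 mice, by 1.27 ± 0.59 on the log2 scale (SD, n = 11; exact permutation p = 0.000977, the smallest that 11 mice can give; adjusted p = 0.00146). Aqp4 stood above Aqp11 in 11 of 11 mice, by 2.85 ± 0.65 (exact permutation p = 0.000977; adjusted p = 0.00146). Aqp1 and Aqp4 were not separated: Aqp1 was the higher in 7 of 11 mice, by 0.26 ± 0.53 (exact permutation p = 0.136; adjusted p = 0.136). Aqp8 was thus the highest and Aqp11 the lowest of the 4 in every mouse, with Aqp1 and Aqp4 in either order between them. Aqp4 stood above Aqp1 in WT-5, KO-3, KO-4 and KO-8.

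Summed over the family, aquaporin TPM ranged from 84.3 in KO-9 to 195.6 in KO-4, with a median of 141.1. Aqp8 made up between 38.4% and 65.7% of this sum, Aqp1 between 16.7% and 36.0%, Aqp4 between 13.0% and 29.5% and Aqp11 between 1.48% and 4.95%. The 7 low genes together made up at most 0.804%.

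**Figure D2:**
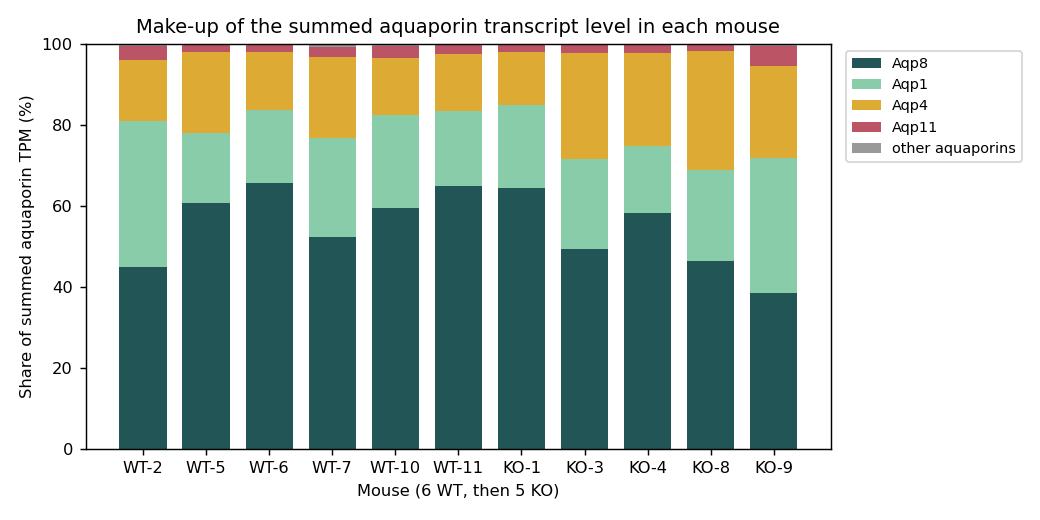
Share of the summed aquaporin TPM (vertical axis, percent) taken by Aqp8, Aqp1, Aqp4, Aqp11 and the other aquaporins in each mouse. Aqp8 takes the largest share in every mouse, from 38.4% in KO-9 to 65.7% in WT-6.

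The loci are given on the mm10 assembly with GENCODE M21, in which all 14 rows were found. Aqp8 (ENSMUSG00000030762) lies on chromosome 7 from 123462291 to 123468004 on the plus strand, and its row is a transcript of 6 exons. Aqp1 (ENSMUSG00000004655) lies on chromosome 6 from 55336432 to 55348555 on the plus strand, with 4 exons. Aqp4 (ENSMUSG00000024411) lies on chromosome 18 from 15389496 to 15410982 on the minus strand, with 5 exons. Aqp11 (ENSMUSG00000042797) lies on chromosome 7 from 97724006 to 97738289 on the minus strand, with 3 exons.

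The table lists principal transcripts only, so reads assigned to other transcripts of a gene are not in these values. GENCODE gives Aqp1 and Aqp3 a single protein-coding transcript each, which is the row listed. It gives Aqp8 and Aqp11 2 protein-coding transcripts each and Aqp4 9, of which 1 row is listed in each case, so the level of Aqp4 in particular covers 1 of several isoforms. Both protein-coding transcripts of Aqp7 are listed.

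The 150 bases before the RefSeq start are shown for the 2 highest members and for Aqp3, which was near 0, to set the sequence at their starts side by side (GRCm38.p6, 5′ to 3′ on the strand of the gene). RefSeq windows were matched for 10 of the 11 genes. Capitals mark the dinucleotide CG and the motif TATAAA. The windows are chr7:123462144-123462293 (plus strand) for Aqp8, chr6:55336149-55336298 (plus) for Aqp1 and chr4:41098184-41098333 (minus) for Aqp3.
Aqp8: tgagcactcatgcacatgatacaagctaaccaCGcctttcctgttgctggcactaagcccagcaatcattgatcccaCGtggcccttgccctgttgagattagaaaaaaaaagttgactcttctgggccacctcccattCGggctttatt
Aqp1: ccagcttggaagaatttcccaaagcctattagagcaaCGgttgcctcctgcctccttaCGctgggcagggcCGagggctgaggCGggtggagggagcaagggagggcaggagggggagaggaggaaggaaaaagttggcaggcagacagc
Aqp3: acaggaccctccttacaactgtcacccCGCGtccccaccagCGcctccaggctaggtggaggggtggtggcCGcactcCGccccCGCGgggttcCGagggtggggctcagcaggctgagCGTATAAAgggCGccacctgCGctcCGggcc

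Over the full 250 bases before the start, Aqp8 and Aqp1 held 5 CG dinucleotides each, beside a median of 6 over 32851 RefSeq promoter windows. Aqp3 held 14, Aqp11 23 and Aqp5, listed at 0 in all mice, 38. The motif TATAAA, searched on both strands of these windows, was found for Aqp3 alone of the 10 genes matched, and in 12.4% of all windows. The number of CG dinucleotides did not order the genes by level, since Aqp8 had few and the near-0 genes Aqp3 and Aqp5 had more.

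The second question was whether the aquaporins differed between KO and WT colon. Differences were tested with limma on log2(TPM + 0.5) with cage as a term, over all 10756 genes, with Benjamini-Hochberg adjustment at 0.05. A log2 fold change is KO minus WT with its standard error. None of the 4 expressed aquaporins passed (0 of 4, against 0.0372% of all genes tested), and none had an unadjusted p under 0.05 (0 of 4, against 3.10% of all genes tested). The WT and KO values overlapped for all 4, as they did for all but 0.223% of genes tested. The median log2 fold change of the 4 was -0.02, with 2 above and 2 below 0, beside -0.01 over all genes tested.

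Aqp8 had between 51.1 and 107 TPM in WT, with a median of 81.4, and in KO 106 TPM in KO-1, 69.8 in KO-3, 114 in KO-4, 57.7 in KO-8 and 32.4 in KO-9. KO held both the highest and the lowest of the 11 values, so the WT range lay inside that of KO. Mean TPM was 80.7 ± 25.4 for WT (SD, n = 6) against 76.0 ± 34.0 for KO (SD, n = 5), and the log2 fold change was -0.15 ± 0.35 (limma adjusted p = 1.00). The 95% interval, -0.92 to 0.62 on the log2 scale or 0.527 to 1.53 in fold, leaves room for a difference of either sign. No mouse had an Aqp8 value between 69.8 and 99.6 TPM, and in cage A, as in cage B, each genotype had 1 mouse above this gap and 1 below it.

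Aqp4 had between 15.0 and 35.1 TPM in WT, with a median of 22.1, and in KO 21.4 TPM in KO-1, 37.2 in KO-3, 44.6 in KO-4, 36.6 in KO-8 and 19.1 in KO-9. The 3 highest values were those of KO-4, KO-3 and KO-8, while KO-1 and KO-9 lay among the WT mice. Mean TPM was 22.4 ± 7.0 for WT against 31.8 ± 11.0 for KO, and the log2 fold change was 0.46 ± 0.27 (limma adjusted p = 1.00; 95% interval -0.14 to 1.07, or 0.906 to 2.09 in fold). In the authors' deposited table, Aqp4 had a log2 ratio of 0.51 with a p-value of 0.126 and a q-value of 1. The difference was not even across cages: cage A gave -0.0070, cage B 0.56 and cage C 1.02, where KO is the single mouse KO-3, the library with the outlying mitochondrial share. Fitted within cages B and C alone it was 0.74 (limma adjusted p = 0.775). Without KO-3 it was 0.27 and without KO-4 0.28.

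Aqp1 had between 24.4 and 40.9 TPM in WT, with a median of 28.8, and in KO 34.1 TPM in KO-1, 31.1 in KO-3, 32.7 in KO-4, 27.7 in KO-8 and 28.3 in KO-9. All KO values lay inside the WT range, which WT-2 alone carried above 34.1 TPM. Mean TPM was 30.1 ± 5.69 for WT against 30.8 ± 2.75 for KO, with a log2 fold change of 0.02 ± 0.12 (limma adjusted p = 1.00). Its 95% interval of -0.24 to 0.28, or 0.847 to 1.22 in fold, was the narrowest of the 4. Across the 11 mice the coefficient of variation of Aqp1 was 14.5%, against 23.1% for Aqp11, 35.8% for Aqp8 and 37.0% for Aqp4.

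Red cells and endothelium carry Aqp1, and their markers are given beside it. Of the red cell list 4 of 5 genes were tested. All 4 were higher in KO (against 46.8% of all genes tested), with a median log2 fold change of 0.93. All 4 had an unadjusted limma p under 0.05 (against 3.10% of all genes tested), and none passed after adjustment. The alpha globin genes were at 10.6 ± 4.70 against 21.3 ± 12.9 TPM (Hba-a1, WT against KO) and 6.77 ± 1.53 against 17.1 ± 10.2 TPM (Hba-a2), and the 5 genes summed to 15.9 to 57.3 TPM for WT and 30.6 to 127.7 TPM for KO. The highest sums were those of KO-8 and KO-1, both of cage A, and by cage Hba-a1 was at 24.3 ± 13.2, 10.7 ± 2.04 and 10.1 ± 5.56 TPM in A, B and C, and Hbb-bt, a beta globin, at 9.55 ± 4.97, 4.76 ± 2.61 and 4.12 ± 3.85 TPM. Of 11 endothelial markers 6 were tested, all 6 higher in KO (against 46.8% of all genes tested), with a median log2 fold change of 0.41. None passed, and 1 of 6, Emcn (endomucin), had an unadjusted limma p under 0.05, against 3.10% of all genes tested. Emcn was at 1.28 ± 0.430 against 2.51 ± 0.438 TPM. Its highest WT value was 1.81 TPM and its lowest KO value 1.86 TPM, a lack of overlap seen in 0.223% of all genes tested. Emcn is named because it had the smallest genotype p of the list, so that share does not measure how rare its pattern is. Esam was at 2.73 ± 0.857 against 3.94 ± 1.18 TPM, and Plvap by cage at 4.90 ± 2.24, 5.24 ± 1.92 and 2.24 ± 0.298 TPM. The 11 markers summed to 6.26 to 20.8 TPM for WT and 11.3 to 23.0 TPM for KO, below Aqp1 alone, at 24.4 TPM or more in every mouse. The part of these cells in the Aqp1 level was not tested. In whole tissue a difference in the number of cells of a type and a difference in RNA per cell cannot be told apart.

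Aqp11 had between 2.43 and 4.05 TPM in WT, with a median of 3.01, and in KO 2.78 TPM in KO-1, 2.88 in KO-3, 3.91 in KO-4, 1.83 in KO-8 and 4.17 in KO-9. As for Aqp8, KO held the highest and the lowest value. Mean TPM was 3.14 ± 0.576 for WT against 3.12 ± 0.943 for KO, with a log2 fold change of -0.06 ± 0.14 (limma adjusted p = 1.00; 95% interval -0.38 to 0.26).

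In the authors' deposited table the listed transcripts of Aqp1, Aqp8 and Aqp11 each had a p-value of 1, with log2 ratios of 0.03, -0.09 and -0.01, and the 10 rows of the 7 low genes carried no p-value. An exact two-sided permutation of genotype within cages, which has 108 relabellings, gave p = 0.185 for Aqp4, 0.685 for Aqp8, 0.741 for Aqp11 and 0.880 for Aqp1, and adjusted p of 0.741 to 0.880 over the 4 genes. The sign of the difference is not settled by these mice for any of the 4 genes. It turned when WT-7, WT-10, WT-11, KO-1 or KO-3 was left out for Aqp1, WT-11 or KO-9 for Aqp8, and KO-8 for Aqp11. For Aqp4 the difference stayed positive with each mouse left out in turn, but was -0.0070 within cage A alone. The interval of Aqp4 given above, -0.14 to 1.07, spanned both signs.

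**Figure D3:**
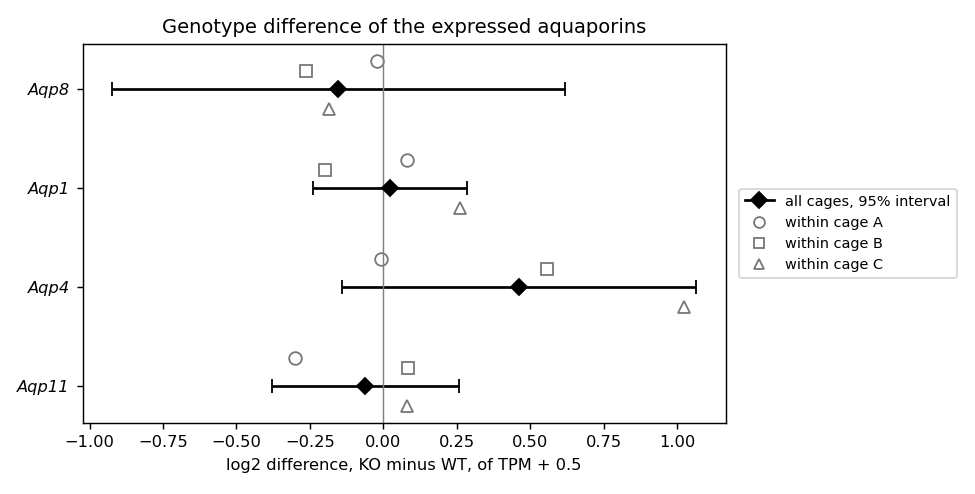
Log2 difference of TPM + 0.5 between KO and WT (horizontal axis) for the 4 expressed aquaporins: diamonds are the fit over all cages with its 95% interval, and open symbols are the difference within each cage. All 4 intervals include 0, and Aqp4 has the widest spread between cages, from -0.0070 to 1.02.

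The third question was whether cages differed. In the F test of the cage terms, 0 of 4 aquaporins passed, as did 0% of all genes tested (limma; 0 of 10756), and 1 of 4, Aqp11, had an unadjusted p under 0.05, against 12.1% of all genes tested. Aqp11 had 3.54 TPM in WT-11, 4.05 in WT-2, 3.91 in KO-4 and 4.17 in KO-9, the mice of cage B, and between 1.83 and 3.03 TPM in the 7 mice of cages A and C. Every mouse of cage B thus lay above every mouse of the other cages, which held for 0.381% of all genes tested. That share counts this cage and direction alone, and both were taken from the Aqp11 values. The share of genes with any cage wholly above or below the others was not counted. The means were 2.61 ± 0.527 TPM in cage A (SD, n = 4), 3.92 ± 0.275 TPM in cage B (n = 4) and 2.77 ± 0.302 TPM in cage C (n = 3). The F test gave an adjusted p of 0.363 (limma), and the cage B mice stood above those of cage A by 0.52 ± 0.17 on the log2 scale (limma adjusted p = 0.265) and above those of cage C by 0.45 ± 0.18 (limma adjusted p = 1.00). These 2 pairwise contrasts were chosen after the values were seen. In the planned contrast of cage A with the mean of cages B and C, Aqp11 had -0.30 ± 0.15 (limma adjusted p = 0.318) and 0 of 4 aquaporins passed, against 0.0465% of all genes tested; 0 of 4 had an unadjusted p under 0.05, against 17.4%.

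The other 3 did not separate by cage. Aqp8 had 82.4 ± 27.6, 75.5 ± 39.9 and 77.5 ± 19.4 TPM in cages A, B and C. Aqp4 had 28.9 ± 8.04, 25.9 ± 12.7 and 24.6 ± 11.4 TPM, and Aqp1 30.0 ± 2.99, 32.9 ± 5.59 and 27.6 ± 3.37 TPM, with adjusted p of the limma F test between 0.670 and 0.936. Between cages B and C the log2 difference was 0.24 ± 0.15 for Aqp1, -0.02 ± 0.34 for Aqp4 and -0.16 ± 0.44 for Aqp8, each with a limma adjusted p of 1.00. The genotype difference of no aquaporin passed the F test for a dependence on cage (0 of 4, against 0.0186% of genes tested), and 0 of 4 had an unadjusted limma p under 0.05, against 3.97% of genes tested.

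**Figure D4:**
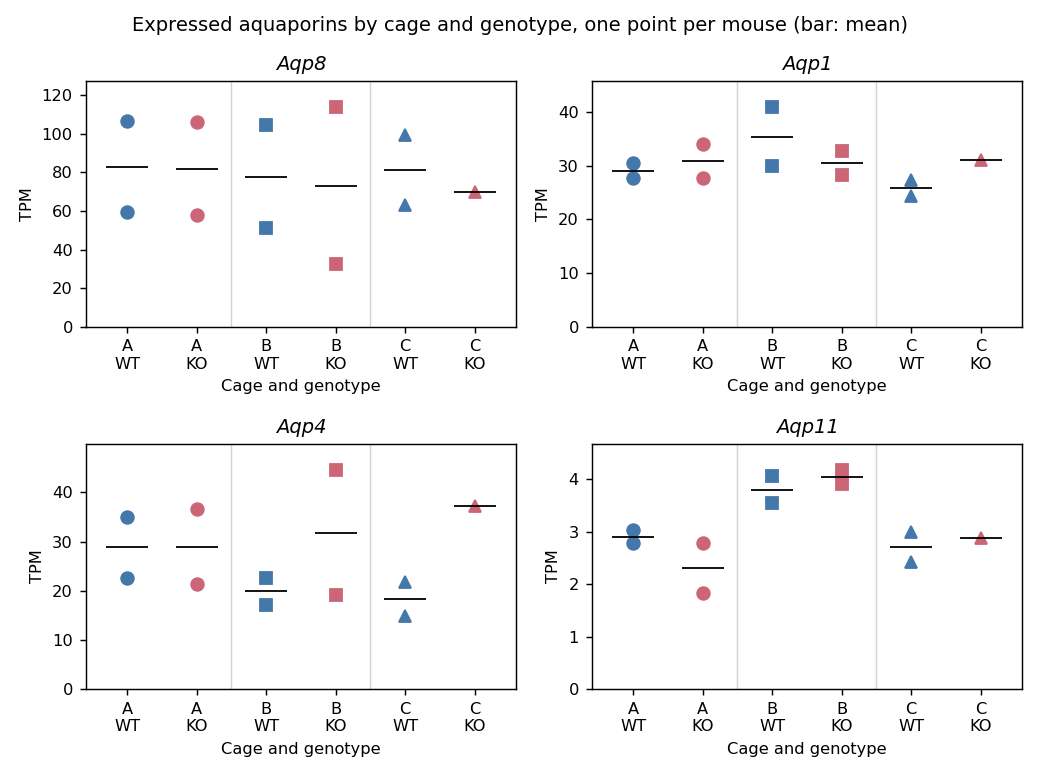
TPM (vertical axes, from 0) of Aqp8, Aqp1, Aqp4 and Aqp11 in each mouse by cage and genotype (blue WT, red KO); bars are means, and the cage C KO column is a single mouse. For Aqp11 the 4 mice of cage B lie between 3.54 and 4.17 TPM, above all others, which reach 3.03 TPM.

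The 7 low aquaporins are given by their range. Aqp12, a member known from the pancreas, had the most, from 0 in WT-2 to 0.618 TPM in WT-7. Aqp3, an aquaglyceroporin of basolateral membranes in several epithelia, ranged from 0 in WT-11, KO-3 and KO-9 to 0.320 TPM in WT-2. Aqp7, the glycerol channel of adipocytes, ranged from 0 in WT-7, KO-3 and KO-8 to 0.378 TPM in WT-5. Each of these 3 genes lay under 1 TPM in both genotypes, with overlapping values.

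Aqp3 and Aqp7 are neighbours on chromosome 4, 44.6 kb apart, on the minus strand. The 9 genes of the adipocyte list summed to 44.1 to 232.1 TPM. The highest medians were those of Pck1 (51.3 TPM) and Fabp4 (13.1 TPM), which other cells of the gut also express. Medians were 0.229 TPM for Adipoq (adiponectin), 0.0700 TPM for Plin1 and 0 for Lep. They were higher for Cfd (2.98 TPM), Plin4 (1.73 TPM), Cidec (0.969 TPM) and Retn (0.717 TPM), and Cfd reached 88.3 TPM in its highest mouse. WT-11 had the highest sum, with 6.89 TPM of Adipoq against at most 1.15 TPM in the other mice, and there Aqp7 had 0.338 TPM. Aqp7 was highest in WT-5, at 0.378 TPM, where Adipoq had 0.635 TPM. In KO-9, with 1.15 TPM of Adipoq, Aqp7 had 0.0895 TPM. Whether Aqp7 follows the adipocyte markers was not tested. The squamous epithelium markers named above, from a tissue that expresses Aqp3, were near 0, with Krt6a and Trp63 at a median of 0.

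Aqp2, the vasopressin-regulated channel of the kidney collecting duct, was listed at 0 in 10 mice and had 0.0684 TPM in WT-2. Aqp9, an aquaglyceroporin of the liver, was listed at 0 in 8 mice and reached 0.0262 TPM in WT-11; it lies on chromosome 9 with Nrg4, 15.8 Mb away. Aqp5, of salivary and sweat glands, and Aqp6, an intracellular channel of the kidney, were listed at 0 in all 11 mice. Aqp2, Aqp5 and Aqp6 form a cluster on chromosome 15 between 99579055 and 99605477. With no filter on low values, limma gave none of Aqp2, Aqp3, Aqp7, Aqp9 or Aqp12 an unadjusted p under 0.05 for genotype.

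Other genes of water and solute handling were compared as lists, and from each the members with the smallest genotype and cage p are named, with means as WT against KO or for cages A, B and C in turn. No member of any list passed for genotype or cage. Over all genes tested, 46.8% were higher in KO and the median log2 fold change was -0.01. The counts per list are a description, since genes of a list can vary together. Of 20 genes of colonic salt transport, whose ion flux draws water across the epithelium, 18 were tested: in KO, 7 were higher and 11 lower, with a median log2 fold change of -0.03. Scnn1g, a subunit of the epithelial sodium channel, was at 4.51 ± 3.04 against 2.26 ± 1.23 TPM. By cage, 7 of the 18 had an unadjusted F test p under 0.05, against 12.1% of all genes tested, and 13 were lower in cage A. The share of all genes lower in cage A was not counted. The median difference of cage A from B and C was -0.32 for the list and 0.03 over all genes tested. In other lists such a p was found for 3 of 11 surface colonocyte, 3 of 13 hydrogen peroxide, 2 of 11 osmotic and 2 of 5 adipocyte genes. In each remaining list it was found for 0 or 1 gene. Atp1b1, the beta subunit of the sodium pump, was at 667 ± 36.8, 914 ± 44.0 and 948 ± 106 TPM, and the sodium-proton exchanger Slc9a2 at 38.1 ± 5.94, 54.9 ± 4.30 and 60.4 ± 4.44 TPM.

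Of the vasopressin, VIP and cAMP list, which sets water channel traffic in other epithelia, 8 of 15 were tested: in KO, 5 were higher and 3 lower. Prkaca, the catalytic subunit of protein kinase A, was at 28.4 ± 3.06 against 32.2 ± 1.68 TPM and Adcy6, an adenylate cyclase, at 24.7 ± 3.58 against 21.9 ± 5.15 TPM. By cage, its relative Prkacb was at 24.0 ± 1.41, 28.2 ± 1.40 and 25.3 ± 1.5 TPM and the G protein Gnas at 295 ± 20.6, 289 ± 18.5 and 258 ± 17.8 TPM. The vasopressin receptor Avpr2 reached at most 0.0909 TPM, while the VIP receptor Vipr1 lay between 43.8 and 54.8 TPM. Of the osmotic response and cell volume list, 11 of 16 were tested, 3 higher and 8 lower, with the inositol importer Slc5a3 at 3.24 ± 0.804 against 3.91 ± 1.02 TPM and the kinase Wnk4 at 4.63 ± 2.81 against 5.33 ± 1.71 TPM. By cage Wnk4 was at 7.22 ± 1.79, 3.74 ± 1.15 and 3.53 ± 1.78 TPM and Lrrc8a, a volume-regulated anion channel subunit, at 13.6 ± 4.75, 8.63 ± 1.07 and 9.00 ± 0.326 TPM.

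Of 13 genes of glycerol handling, the solute of Aqp3, Aqp7 and Aqp9, 12 were tested: in KO, 3 were higher and 9 lower, with a median of -0.11. Dgat1, a triglyceride-forming enzyme, was at 11.1 ± 2.98 against 8.53 ± 2.52 TPM and Gpd2, the mitochondrial glycerol-phosphate dehydrogenase, at 9.42 ± 1.31 against 8.11 ± 1.48 TPM. By cage the glycerol kinase Gk was at 4.40 ± 1.85, 6.18 ± 2.04 and 8.0 ± 2.40 TPM and Gpd1l at 21.4 ± 1.09, 19.5 ± 2.40 and 17.7 ± 2.43 TPM. All 13 genes that remove hydrogen peroxide, which Aqp8 passes, were tested, 10 higher and 3 lower with a median of 0.01. Gpx2, the gut glutathione peroxidase, was at 40.9 ± 11.8 against 37.4 ± 16.4 TPM and catalase (Cat) at 31.7 ± 3.62 against 33.7 ± 2.24 TPM; by cage Gpx2 was at 52.9 ± 11.7, 31.1 ± 8.18 and 32.1 ± 3.10 TPM and the peroxiredoxin Prdx6 at 98.4 ± 12.8, 129 ± 20.0 and 149 ± 24.6 TPM.

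Of the dystrophin complex that anchors Aqp4 in muscle and glia, 6 of 12 were tested, 3 higher and 3 lower. Agrn (agrin) was at 1.29 ± 0.306 against 1.57 ± 0.423 TPM. By cage Dag1 (dystroglycan) was at 34.4 ± 1.58, 27.0 ± 3.81 and 26.2 ± 4.59 TPM and Sgcb, a sarcoglycan, at 2.65 ± 0.424, 3.16 ± 0.390 and 2.32 ± 0.0784 TPM.

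Markers of the cells that could carry aquaporins were set beside them. The surface absorptive colonocyte list had 6 genes higher and 5 lower in KO and summed to 16507 to 24718 TPM for WT and 18474 to 22461 TPM for KO. Most of these sums was Lypd8, with a mean of 13145 TPM for WT and 12980 TPM for KO. Cyp2c55 was at 237 ± 44.2 against 294 ± 48.5 TPM and the mucin Muc3 at 1819 ± 207 against 1655 ± 109 TPM; by cage the chloride-bicarbonate exchanger Slc26a3 was at 388 ± 49.6, 612 ± 193 and 753 ± 97.6 TPM and the hormone guanylin (Guca2a) at 771 ± 219, 643 ± 102 and 443 ± 88.3 TPM. The crypt base list split 5 to 3, with Ephb2 at 1.42 ± 0.689 against 1.75 ± 0.276 TPM, Lgr5 at 3.39 ± 0.865 against 4.20 ± 2.05 TPM and by cage Ascl2 at 6.92 ± 3.35, 12.6 ± 2.64 and 16.4 ± 4.05 TPM. The goblet cell list split 6 to 2, with Muc2 at 168 ± 28.7 against 171 ± 46.0 TPM, Spink4 at 1267 ± 36.0 against 1348 ± 229 TPM, and by cage Spdef at 12.8 ± 2.60, 10.4 ± 1.5 and 9.78 ± 0.552 TPM and Clca1 at 450 ± 72.7, 570 ± 155 and 369 ± 137 TPM.

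In the muscle layer 7 of 7 tested smooth muscle genes were higher in KO (against 46.8% of all genes tested), with a median log2 fold change of 0.07. Mylk was at 69.1 ± 17.4 against 77.2 ± 12.5 TPM and Lmod1 at 18.2 ± 4.61 against 20.3 ± 3.88 TPM. By cage Actg2 was at 1247 ± 333, 888 ± 163 and 787 ± 186 TPM and Des at 503 ± 137, 389 ± 46.0 and 377 ± 76.6 TPM. Log2 fold changes of these named genes ran from 0.02 ± 0.18 for Des to 0.17 ± 0.18 for Mylk. The adipocyte list split 2 to 3, with Cidec at 2.18 ± 2.42 against 0.893 ± 0.383 TPM, Plin4 at 2.18 ± 1.05 against 1.54 ± 0.404 TPM and by cage Pck1 at 37.0 ± 7.28, 64.3 ± 17.7 and 52.6 ± 2.17 TPM and Cfd at 1.77 ± 2.04, 25.8 ± 41.7 and 1.23 ± 1.56 TPM. Enteric glia split 2 to 1 (Gpm6b 0.499 ± 0.725 against 1.1 ± 0.778 TPM, S100b 1.84 ± 0.557 against 2.14 ± 0.529 TPM). Enteric neurons split 2 to 4 (Ret 2.28 ± 0.576 against 2.01 ± 0.593 TPM; by cage Uchl1 5.58 ± 0.937, 9.26 ± 3.63 and 6.68 ± 1.46 TPM). Of skeletal muscle only Acta1 was tested, at 6.72 ± 3.12 against 5.11 ± 2.36 TPM, and of squamous epithelium and mesothelium no gene; the mesothelial genes summed to at most 5.16 TPM, with Wt1 at 0. The part of any of these cell types in the aquaporin levels was not tested.

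Among themselves the 4 aquaporins showed little shared pattern over the 11 mice, which is given as a description. The highest correlation of log2(TPM + 0.5) was between Aqp1 and Aqp11 (Pearson r = 0.45, Spearman rho = 0.42) and the next between Aqp4 and Aqp8 (r = 0.41, rho = 0.50). After subtraction of cage means the first was 0.22 and the second 0.40. The other 4 pairs lay between -0.24 and 0.11.

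The genes whose pattern was most like each aquaporin were taken as the 3 with the highest Pearson r after subtraction of cage means, over 11 mice and among 10480 named genes. With so many genes and 11 mice, high values are common, and between 3 and 12 genes exceeded 0.9 for each aquaporin. For Aqp8 they were Rnaseh2a (r = 0.94), Abcb1a (0.94) and Crot (0.93), with means of 9.35, 97.3 and 14.4 TPM. For Aqp4 they were Ipo8 (0.94), Mcph1 (0.94) and Stil (0.93), for Aqp1 Nfx1 (0.95), Shc1 (0.94) and Cfap300 (0.94), and for Aqp11 Camsap1 (0.94), Toe1 (0.93) and Recql4 (0.91). Without the subtraction the values were 0.66 to 0.76 for the genes of Aqp8, 0.79 to 0.92 for those of Aqp4, 0.03 to 0.86 for those of Aqp1 and 0.25 to 0.50 for those of Aqp11. Against the mean log2 level of the surface absorptive colonocyte list, Aqp8 had r = 0.20 and rho = 0.25, also without the subtraction.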

How the data were processed

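The submitters' processing notes name CASAVA, kallisto, sleuth and mm10, without versions. Per the labels' protocols, stranded mRNA libraries gave single-end 75 nt reads. The deposited values are TPM per principal transcript and mouse. Beside them the authors deposited a p-value and a q-value per transcript, a log2 ratio of mean TPM, a mean natural log of normalized counts and score columns of their test; the last 2 kinds were not used. Of 29213 rows, 405 repeats were dropped, and TPM were summed per gene. TPM keep no read depth, so depth is unknown and no counting interval is given.

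A gene was tested if 5 or more mice had 1 TPM or more, with limma 3.58.1 (R 4.3.3, trended variance) on log2(TPM + 0.5), which understates changes of low genes, with cage and genotype terms and Benjamini-Hochberg adjustment over all genes tested. The labels do not say how mice are related. Code was checked on simulated data. Alternatives covered the pseudocount, filter, scaling, cage term, moderation, transcript rows, subsets of cages and each mouse left out.

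The genes and lists were chosen with earlier results of these data known. All Aqp genes are reported; from each list the 2 tested members with the smallest genotype p and the 2 with the smallest cage p are named, and for each expressed aquaporin the 3 genes most correlated after subtraction of cage means. Some genes that this rule names are not reported here. Other genes named (Avpr2, Vipr1, Adipoq, Fabp4, Plin1, Lep, Retn, Krt6a, Trp63, Wt1, Lypd8, Dhrs9) were chosen after their values were seen.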

Additional observations from a re-analysis of the deposited data

Results flagged for a closer look

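The Aqp1 value of WT-2, 40.9 TPM, stood apart from the other 5 WT mice, which lay between 24.4 and 30.4 TPM: its gap to the next mouse was 0.633 of the range of the group. That exceeded Dixon's 95% critical value for a group of 6. Among 16 groups of 4 to 6 mice examined for the 4 expressed aquaporins, no other value exceeded the critical value for its group size, which is higher in smaller groups. Ratios above 0.633 were also found among the 4 mice of a cage, 0.795 for Aqp4 of KO-4 and 0.644 for Aqp1 of WT-2 in cage B and 0.789 for Aqp11 of KO-8 in cage A, each below the critical value for 4 mice. Among the WT mice, the Aqp4 value of WT-5 had a ratio of 0.615, just below the critical value of 0.625 for a group of 6. Chance alone would set apart about 1 group in 20.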

How the results depend on the processing

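No aquaporin passed the threshold under any of the 23 alternatives run for genotype, 21 for cage and 18 for the interaction; Aqp11 was not tested with a mean of at least 5 TPM, and the interaction could not be fitted without KO-3. The sign of each mean difference in level held in each of 14 alternatives. The adjusted p of the sign-flip test was 0.00146 to 0.0469 for Aqp8 over Aqp1 and for Aqp4 over Aqp11. For Aqp1 over Aqp4 it was 0.0625 to 0.270, so this pair was not separated in any of them. The alternatives held WT mice alone but not KO mice alone. Mean TPM for KO was 31.8 for Aqp4 and 30.8 for Aqp1, against 22.4 and 30.1 for WT. The genotype difference of Aqp1 turned to -0.059 without cage C and to -0.013 within cages B and C, that of Aqp4 to -0.0070 within cage A and that of Aqp11 to 0.082 within cages B and C. With each mouse left out it ranged from -0.059 to 0.12 for Aqp1, -0.39 to 0.12 for Aqp8, -0.11 to 0.043 for Aqp11 and 0.27 to 0.64 for Aqp4. In these fits the unadjusted limma p of Aqp4 was under 0.05 without KO-1, KO-9 or WT-5 (0.0345, 0.0447 and 0.0462). Its limma adjusted p was 0.775 or more in all 23 alternatives. The exact permutation within cages gave Aqp4 an adjusted p of 0.741 over 4 genes. The difference of cage A from cages B and C turned for Aqp1 to 0.014 with mitochondrial genes left out, and with each mouse left out ranged from -0.068 to 0.055 for Aqp1, -0.044 to 0.36 for Aqp8 and -0.0076 to 0.43 for Aqp4. The cage F test p of Aqp11 ranged from 0.0155 to 0.254, and the cause was not tested. Over all genes, the genotype test called 4 genes and between 0 and 5 under the alternatives, the cage test 0 and between 0 and 4, and the interaction test 2 and between 1 and 49, the last with no filter on low values. The labels define no pairs of WT and KO mice, so no paired analysis was run. Cage, which held both genotypes, was a term of the fit instead.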
